A study of Homo sapiens with 4 samples.

Results

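The transcripts of 10 genes encoding helix-loop-helix factors were followed in K562 cells expressing RUNX1::ERG. They were the 3 E protein genes (TCF3, TCF4 and TCF12), the 4 ID genes (ID1, ID2, ID3 and ID4) and 3 genes of the HES and HEY family (HES1, HES6 and HEY1). They were taken by name and NCBI gene number from the 25702 genes counted, and 9 of the 10 passed the filter on low counts. The study characterized RUNX1::ERG, a fusion from pediatric acute myeloid leukemia that keeps the Runt and Ets DNA-binding domains. K562, an established line from chronic myeloid leukemia with erythroid features, was transiently transfected with the LeGO-iG2 plasmid carrying RUNX1::ERG or with empty LeGO-iG2, which co-expresses green fluorescent protein in either case. No other treatment was given, and the general protocol assays cells 72 h after transfection unless stated otherwise. Poly(A) RNA was sequenced from 2 biological replicates of each group. The sources do not say that transfected cells were sorted before sequencing, so the libraries may hold untransfected cells. By green fluorescent protein, the paper reports that its K562 protocol regularly transfected most cells, with no figure for these libraries. In such bulk RNA fewer cells expressing a gene and less RNA per cell cannot be told apart.

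E proteins are widely expressed basic helix-loop-helix (bHLH) factors that bind the E box, written CANNTG, as dimers. In blood cells they pair with tissue-restricted partners such as TAL1 to form activating or repressing complexes. ID proteins keep the helix-loop-helix that pairs with an E protein but lack the basic region that contacts DNA, so an E protein held by an ID protein does not bind its sites. HES and HEY proteins are bHLH repressors, and several of them, HES1 foremost, are known targets of Notch signalling. ID genes are known targets of bone morphogenetic protein (BMP) signalling.

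Library totals ranged from 59695387 to 82352144 counts. Between 66.7% and 68.9% of the counts from 1 to 10 were even, a pattern that arises when each mate of a read pair adds 1 count. Independent fragments would then be fewer than the counts. ERG, as a check of the labels, had 4 counts per control and reached 80443 counts in RUNX1::ERG replicate 1 and 27218 in replicate 2. In CPM, counts scaled to library sizes normalized by TMM, ERG was at 954 and 379 in these 2 libraries and RUNX1 at 786 and 400.2, so replicate 1 had more of both. All 8 markers that define K562 cells were expressed, with a summed level of 11900 to 12500 normalized CPM with the empty vector and 12900 to 14000 with the fusion. Of 8 platelet and megakaryocyte markers 5 rose, with sums of 74.3 to 85 against 429 to 491 normalized CPM, while GP9 had at most 2 counts in a library and GP1BB none. Of 6 monocyte and granulocyte markers CD14 and LYZ rose (sums 7.79 to 10.7 against 20.8 to 22.5), and LYZ made up most of each sum. MPO and ITGAM, with at most 19 counts in a library, had log2 fold changes of -0.86 and -0.99 and were not called. ELANE and CSF1R were not tested. Of 6 fibroblast and endothelial markers COL1A1 and PECAM1 rose (sums 9.38 to 9.87 against 47.1 to 48.4). COL1A2 (log2 fold change 0.11), PDGFRB (-1.09) and CDH5 (2.96) were not called, and COL3A1 was not tested. PDGFRB and CDH5 had at most 36 counts in a library. None of 6 lymphoid markers was called (sums 34.9 to 36.2 against 22.6 to 25), and MS4A1 was at 0. Among all tested genes 4.79% were called and 3.64% were called higher, at the threshold given below. The part of these markers in the results below was not tested.

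HES1 fell and ID1 rose with RUNX1::ERG, and they were the only members past the threshold in the main comparison. HES1, a repressor through which Notch signals hold back differentiation, was at about 19 normalized CPM with the empty vector and 7 with the fusion. ID1 went from about 76 to 133. For each of the 3 E protein genes the groups overlapped. Calls required an adjusted p under 0.05 in the edgeR quasi-likelihood test over 15394 genes (Benjamini-Hochberg), and 2 of the 9 tested members passed, against 4.79% of all tested genes. One member was called higher, where 3.64% of tested genes were, and 1 lower, where 1.15% were. Both RUNX1::ERG libraries lay above both empty vector libraries for 2 members, against 25.1% of tested genes, and below them for 3 members, against 22.1%. The median log2 fold change of the 9 members was -0.09 and that of all tested genes -0.002.

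**Figure D1:**
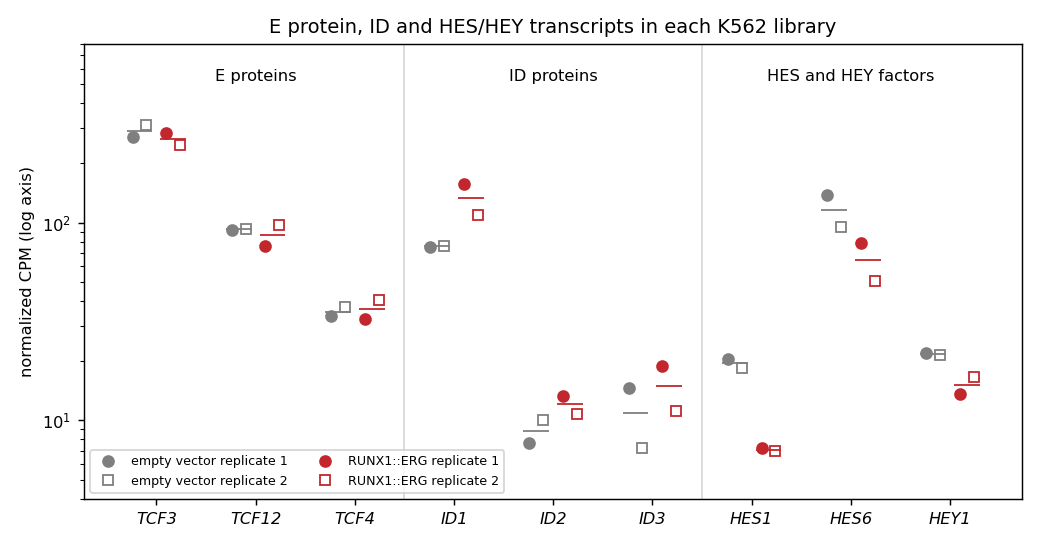
Normalized CPM (log axis) of the 9 detected members in each library, with grey symbols for the empty vector, red symbols for RUNX1::ERG and short lines at the group means. For HES1, HES6 and HEY1 both red symbols lie below both grey ones, for ID1 and ID2 both lie above, and for TCF3, TCF12, TCF4 and ID3 the groups overlap.

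HES1 (NCBI gene 3280, chromosome 3 of GRCh37, 193853937 to 193856521, plus strand) was at 20.5 and 18.4 normalized CPM in empty vector replicates 1 and 2, and at 7.2 and 6.98 in RUNX1::ERG replicates 1 and 2. The groups were well apart and the fusion libraries nearly equal, although their ERG levels were not. The group means were 19.5 ± 1.48 and 7.09 ± 0.153 (SD, n = 2). The log2 fold change was -1.46 (standard error 0.21, 95% interval -1.92 to -1.0), with an adjusted p of 0.003 from edgeR's quasi-likelihood test. The call held in each of the 12 other settings run, with log2 fold changes from -1.53 to -1.38.

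HES6 (NCBI gene 55502, chromosome 2, 239146908 to 239149303, minus strand) encodes a relative that is known to antagonize HES1 in neural cells. It was at 137.5 and 94.9 normalized CPM in the controls and at 78.5 and 50.7 with RUNX1::ERG. Both fusion libraries were lower, but replicate 1 was the higher library in each group. The log2 fold change of -0.85 (standard error 0.24, 95% interval -1.37 to -0.33) missed the threshold, with an adjusted p of 0.07 from edgeR. Without empty vector replicate 2 it was -1.09 and called (adjusted p = 4.94e-05), and without RUNX1::ERG replicate 1 it was -1.2 and called (adjusted p = 0.0167). Leaving out either of the other libraries made it smaller, -0.56 for empty vector replicate 1 and -0.58 for RUNX1::ERG replicate 2. HES6 was called without the filter on low counts (adjusted p = 0.000126 from edgeR) and by the DESeq2 Wald test (0.00987). These settings called more genes in general, 1500 and 1194 against 737 in the main comparison.

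HEY1 (NCBI gene 23462, chromosome 8, 80674606 to 80680092, minus strand), a HES-related repressor known as a Notch target in vessels, was at 22.0 and 21.4 normalized CPM with the empty vector. It was at 13.6 and 16.6 with RUNX1::ERG, so both fusion libraries were lower. The log2 fold change was -0.53 (standard error 0.2, 95% interval -0.96 to -0.09) with an adjusted p of 0.18 from edgeR, and no other setting called it. For each of the 3 HES and HEY members both fusion libraries thus lay below both controls, as they did for 22.1% of tested genes. Of the 3, 1 was called lower, where 1.15% of tested genes were. The direction was not shared by the whole family. Outside the members HES2 was lower in both fusion libraries, HES4 and HES7 overlapped and HEYL was higher in both, without a call.

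ID1 (NCBI gene 3397, chromosome 20, 30193086 to 30194318, plus strand) was at 75.4 and 76.0 normalized CPM in the controls and at 156 and 109 with RUNX1::ERG. The controls were nearly equal, and the fusion libraries were both higher but differed from each other by more than the controls did. The group means were 75.7 ± 0.409 and 133 ± 33.4 (SD, n = 2). The log2 fold change was 0.81 (standard error 0.19, 95% interval 0.39 to 1.23), with an adjusted p of 0.036 from edgeR's quasi-likelihood test. The call rested on RUNX1::ERG replicate 1: without that library the log2 fold change was 0.53 and the adjusted p 0.281, and it held in the other 11 settings. RUNX1::ERG replicate 1 was also the library with more ERG, and a link between that level and ID1 was not tested.

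ID2 (NCBI gene 3398, chromosome 2, 8818975 to 8824591, plus strand) was at 7.64 and 10.03 normalized CPM in the controls and at 13.3 and 10.7 with RUNX1::ERG. The fusion libraries were higher by a narrow margin, and the log2 fold change was 0.44 (95% interval -0.08 to 0.97, adjusted p = 0.37 from edgeR). In the annotation 145 of its exon bases (6.55%) are shared with the antisense gene ID2-AS1, and the strand setting of the counting is not given in the sources used here. ID3 (NCBI gene 3399, chromosome 1, 23884417 to 23885992, minus strand) was at 14.5 and 7.23 with the empty vector and at 18.8 and 11.1 with RUNX1::ERG. Replicate 1 was the higher library in each group, and the groups overlapped. Its log2 fold change was 0.46 (95% interval -0.29 to 1.21, adjusted p = 0.54 from edgeR), and it was 1.04 and called (adjusted p = 0.00706) without empty vector replicate 1, while it was 0.04 with empty vector replicate 2 left out and 0.03 with RUNX1::ERG replicate 1 left out. ID4 (NCBI gene 3400, chromosome 6, 19837601 to 19842428, plus strand) had 0 counts in all 4 libraries. Since 0 counts are compatible with a true value of up to 3, its level may reach 0.0364 CPM in the largest library and 0.0503 in the smallest, counting error alone considered. These limits take counts as independent, and would be higher if each mate of a pair adds 1 count.

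**Figure D2:**
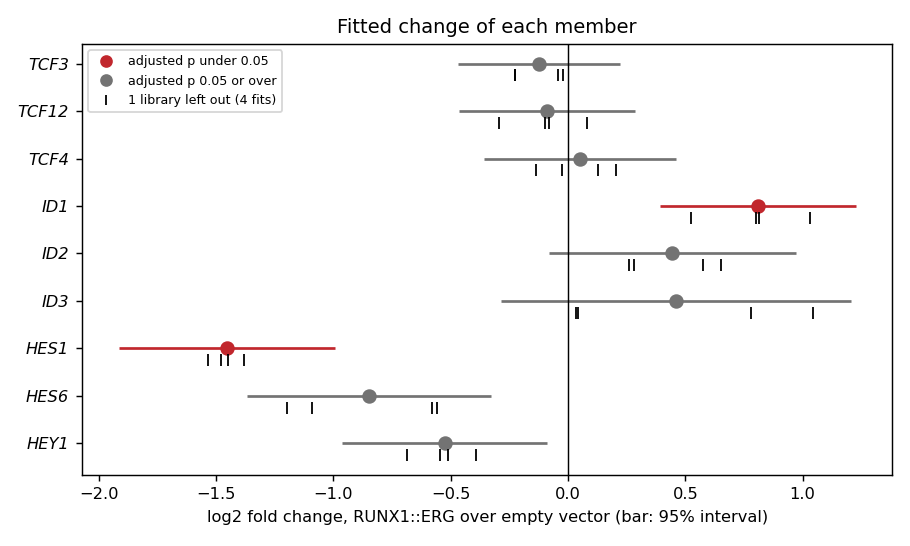
Log2 fold change of RUNX1::ERG over the empty vector for each tested member, with its 95% interval, in red where the adjusted p is under 0.05. Short vertical marks below each point give the 4 fits that each leave out 1 library: those of HES1 stay between -1.53 and -1.38, and those of ID3 spread from 0.03 to 1.04.

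The promoters of the 2 called members are shown, and no BMP response element was searched in them. RefSeq sequence of GRCh38.p14 was read for the 250 bases before each start site, 5′ to 3′ on the plus strand, at chr3:194135898-194136147 for HES1 and chr20:31605039-31605288 for ID1. Capitals mark TGGGAA, the core bound by the Notch effector RBPJ.
HES1: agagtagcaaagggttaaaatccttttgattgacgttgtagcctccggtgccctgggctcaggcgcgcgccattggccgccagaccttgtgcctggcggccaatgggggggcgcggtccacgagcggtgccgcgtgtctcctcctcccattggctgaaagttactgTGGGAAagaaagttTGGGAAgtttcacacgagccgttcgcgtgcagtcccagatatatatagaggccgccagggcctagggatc
ID1: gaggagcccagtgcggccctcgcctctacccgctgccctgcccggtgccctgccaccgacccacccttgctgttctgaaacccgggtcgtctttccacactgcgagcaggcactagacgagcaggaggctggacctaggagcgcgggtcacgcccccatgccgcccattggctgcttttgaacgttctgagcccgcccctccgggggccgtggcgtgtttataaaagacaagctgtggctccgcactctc

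The HES1 window held TGGGAA in 2 places, starting 84 and 70 bases before the start site in the same orientation, and 20.8% of the 35116 promoters in the table hold it at least once on either strand. The ID1 window held none. Neither window held TGTGGT, a form of the RUNX site (11% of promoters), CCGGAA, a form of the ETS site (14.5%), or the E box CANNTG (61.8%). The N box CACNAG, to which HES proteins bind, was found 3 times in the HES1 window and once in that of ID1, and 32% of promoters hold it. These are matches of letters within 250 bases, both strands searched, and none overlapped another in these 2 windows. Promoters of 9 members were matched by symbol, all but HEY1, some with several start sites. None of their windows held TGTGGT or CCGGAA, while TGGGAA was also found before start sites of TCF12 and TCF4. Other or shorter forms of the RUNX and ETS sites were not searched.

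Differences of the E protein genes lay within the replicate spread. TCF3 (NCBI gene 6929, chromosome 19, 1609290 to 1652614, minus strand), which encodes E12 and E47, was at 269 and 310.0 normalized CPM in the controls and at 284 and 248 with RUNX1::ERG. Its groups overlapped, with a log2 fold change of -0.12 (95% interval -0.47 to 0.22, adjusted p = 0.76 from edgeR). TCF12 (NCBI gene 6938, chromosome 15, 57210821 to 57591479, plus strand), which encodes HEB, was at 91.8 and 92.7 against 76.0 and 97.6. The fusion libraries lay on either side of the controls, and the log2 fold change was -0.09 (95% interval -0.46 to 0.29, adjusted p = 0.85 from edgeR). TCF4 (NCBI gene 6925, chromosome 18, 52889416 to 53332018, minus strand), which encodes E2-2 and is not the Wnt effector TCF7L2 that shares its older name, was at 33.5 and 37.2 against 32.5 and 40.8. In the annotation 0.669% of its exon bases are shared with RPL21P126 and 0.223% with TCF4-AS2. Its groups overlapped as well, with a log2 fold change of 0.05 (95% interval -0.36 to 0.46, adjusted p = 0.93 from edgeR). Each interval leaves out a change of 0.5 on the log2 scale in either direction.

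Levels of different genes were set side by side after division by the length of the annotated exons. In normalized CPM per kilobase, the empty vector means ran in the order ID1 (61.4 ± 0.331), HES6 (59.5 ± 15.4), TCF3 (45.5 ± 4.53), TCF12 (9.77 ± 0.0637), HES1 (9.45 ± 0.721), ID3 (7.27 ± 3.44), ID2 (3.99 ± 0.763), HEY1 (3.96 ± 0.072) and TCF4 (1.21 ± 0.0901; SD, n = 2 throughout), with ID4 at 0. Within this order the libraries of HES6 overlapped those of ID1 and of TCF3, HES1 overlapped TCF12 and ID3, and ID2 overlapped HEY1, so those neighbours are not separated by their spread. TCF3 and TCF12, ID3 and ID2, and HEY1 and TCF4 did not overlap. With RUNX1::ERG, ID1 (108 ± 27.1) stood above TCF3 (41.7 ± 4.02) and HES6 (33.0 ± 10.1), and the latter pair overlapped. HES1 (3.44 ± 0.0744) lay below both libraries of ID2 (5.43 ± 0.821), where it had been above both with the empty vector. The order depends on the length used. For TCF4 the exons span 29166 bases in all and 8041 in the canonical transcript, and on the latter length it was at 4.17 and 4.63 in the empty vector libraries, still the lowest of the detected members. On canonical lengths and in the same libraries HES6 (101 and 69.4) had a higher mean than ID1 (76.7 and 77.3), with overlap. HEY1, at 9.76 in its lower library, lay above ID2 (5.88 and 7.72), and TCF12 (15.0 and 15.2) above HES1 (13.0 and 11.7), so these pairs, which overlapped on the whole exon length, then did not.

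Per kilobase of exon, the ID transcripts together outnumbered those of the E proteins in every library, and more so with the fusion. The sum of the ID genes was 74.3 and 71 normalized CPM per kilobase with the empty vector and 145 and 101 with RUNX1::ERG. The sum of TCF3, TCF4 and TCF12 was 53.1 and 59.8 against 53.7 and 50.6. The ratio of the ID sum to the E protein sum was thus 1.4 and 1.19 in the controls and 2.7 and 1.99 in the fusion libraries. The group means were 1.29 ± 0.149 and 2.35 ± 0.505 (SD, n = 2), a 1.81-fold difference, given with no test. ID1 made up 82.3% to 87.8% of the ID sum and TCF3 76.8% to 83% of the E protein sum, so the ratio mostly follows these 2 genes. With ID1 left out the fold was 1.45. On canonical lengths the ratio of the ID sum to the E protein sum was 1.29 and 1.09 in the controls. It was 2.47 and 1.78 in the fusion libraries. The ratio of HES1 to HES6, both of which were lower with the fusion, was 0.142 and 0.184 in the controls and 0.0871 and 0.131 in the fusion libraries, again without overlap.

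**Figure D3:**
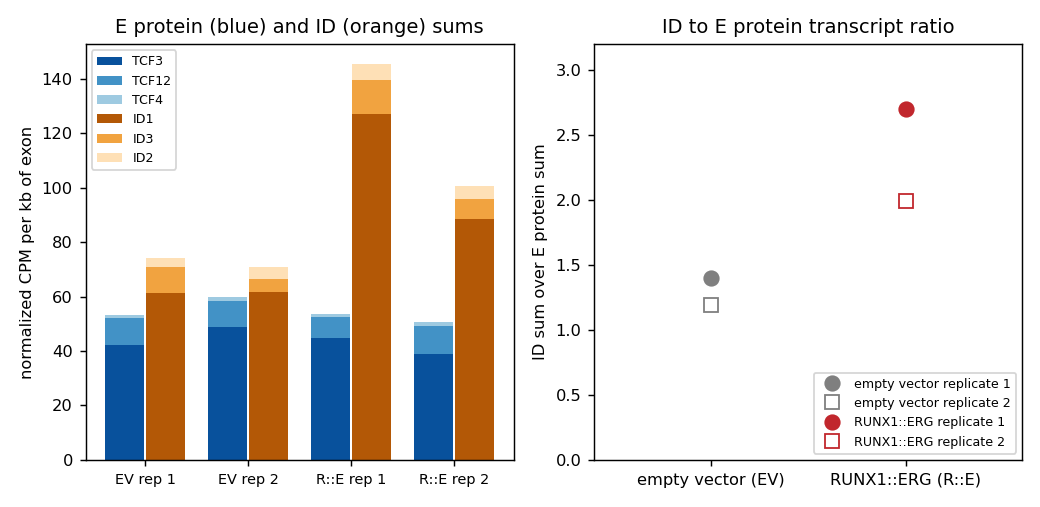
Left, stacked bars of normalized CPM per kilobase of exon for the E protein genes (blue) and the ID genes (orange) in each library, where EV is the empty vector and R::E is RUNX1::ERG. Right, the ID sum divided by the E protein sum, at 1.4 and 1.19 for the empty vector and at 2.7 and 1.99 for RUNX1::ERG.

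Other HES and HEY family genes and the related BHLHE40 and BHLHE41 were mostly low. Of 10 such genes 6 were tested and 1 was called, against 4.79% of all tested genes. The called gene was BHLHE40, a bHLH repressor linked to circadian rhythm and hypoxia. It rose from 99.4 and 102 normalized CPM to 212 and 166, opposite in direction to HES1, a log2 fold change of 0.91 with standard error 0.17 (adjusted p = 0.013 from edgeR). Without RUNX1::ERG replicate 1 it was 0.72 and not called (adjusted p = 0.0937). HES4, which was not low, was at 18.6 and 12.55 normalized CPM with the empty vector and 18.9 and 9.49 with RUNX1::ERG. Its groups overlapped, with a log2 fold change of -0.14 (adjusted p = 0.887 from edgeR). The 4 untested genes had at most 14 counts in a library.

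Of 30 tissue-restricted bHLH genes whose products pair with E proteins, 10 were tested and 13 had 0 counts throughout. TAL1, the partner of E proteins in erythroid and megakaryocytic cells, was the only gene called, against 4.79% of all tested genes. It was at 197 and 197 normalized CPM against 323 and 308, or 0.68 on the log2 scale with standard error 0.15 (adjusted p = 0.025 from edgeR). Without RUNX1::ERG replicate 1 or 2 the adjusted p was 0.145 or 0.0538, with values of 0.64 and 0.7. LYL1, its close relative, was at 150 and 153 against 130 and 107 (log2 fold change -0.35, adjusted p = 0.28 from edgeR), and both fusion libraries were lower. The TAL1 transcript thus rose, while those of the E proteins it pairs with passed no test.

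None of the 9 LIM-domain and adaptor genes of the TAL1 complex was called among 6 tested, against 4.79% of all tested genes. The median log2 fold change of the 6 was -0.02. LDB1, which links distant TAL1 complexes, was at 238 and 259.6 against 219 and 174 normalized CPM, and SSBP4 was at 148 and 139 against 162 and 113. Of 9 genes of the ETO and TLE corepressor families 7 were tested and none was called, against the same 4.79%. Some members of these families act with E proteins and with HES factors respectively. CBFA2T3, an ETO relative of the erythroid TAL1 complex, was at 151 and 152 against 246 and 183 (log2 fold change 0.5, adjusted p = 0.14 from edgeR). TLE5 was at 380 and 349 against 398 and 344 normalized CPM.

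Of 37 Notch pathway genes other than the members, 32 were tested and 1 was called, NOTCH1, against 4.79% of all tested genes, a share of calls near that background. The median log2 fold change over the 32 was -0.01. NOTCH1, the receptor, rose from 51.8 and 61.8 normalized CPM to 114 and 104, or 0.94 on the log2 scale with standard error 0.17 (adjusted p = 0.0094 from edgeR), and the call held in all 12 other settings. Receptor and target were thus apart in opposite directions in the same libraries. RBPJ, which recruits the receptor's cleaved part to DNA, was at 36.6 and 38.9 against 34.8 and 36.6 normalized CPM. NRARP, another known Notch target, was at 13.4 and 22.6 against 18.1 and 16.4, and its groups overlapped. Of the ligands, JAG2 was at 87 and 114 against 88.1 and 70.6 and DLK1 at 7.84 and 8.76 against 5.61 and 6.86. JAG1 was at 0.382 and 0.539 against 1.83 and 1.21, with a log2 fold change of 1.72 that missed the threshold (adjusted p = 0.059 from edgeR). It was called in 5 of the 12 other settings. None of 16 tested processing and modulator genes was called, and their most abundant members APH1A and MIB1 had log2 fold changes of -0.13 and -0.05. In the nucleus SPEN and SNW1 were at 0.28 and -0.15 on the same scale, without a call.

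Of 27 BMP pathway genes 18 were tested and 3 rose, where 3.64% of all tested genes did, and the median over the 18 was 0.13 on the log2 scale. BMP6, a ligand also known from iron control, had 2 and 0 counts with the empty vector and 212 and 108 with RUNX1::ERG (adjusted p = 0.00076 from edgeR), and no fold is given because so few control counts cannot fix it. BMP10, a ligand of the endothelial receptor, rose from 1.08 and 1.09 normalized CPM to 3.33 and 3.32 (log2 fold change 1.61, adjusted p = 0.02 from edgeR), and without RUNX1::ERG replicate 1 or 2 its adjusted p was 0.126 or 0.0518. ACVRL1, the type I receptor for BMP10 that marks endothelium, rose from 0.946 and 0.567 to 5.02 and 4.1 (log2 fold change 2.6, standard error 0.37, adjusted p = 0.0029 from edgeR). BMP6 was at 2.51 and 1.5 normalized CPM in the fusion libraries. A link of these 3 genes to ID1 was not tested. SMAD6, an inhibitor that is itself induced by BMP, was at 12.8 and 7.71 against 20.2 and 12.2 (log2 fold change 0.66, adjusted p = 0.28 from edgeR). Replicate 1 was the higher in each group, as for ID3, and the groups overlapped. SMAD7, of the same list, was at 4.52 and 3.32 against 4.28 and 3.49 (log2 fold change -0.01, adjusted p = 0.99 from edgeR).

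**Figure D4:**
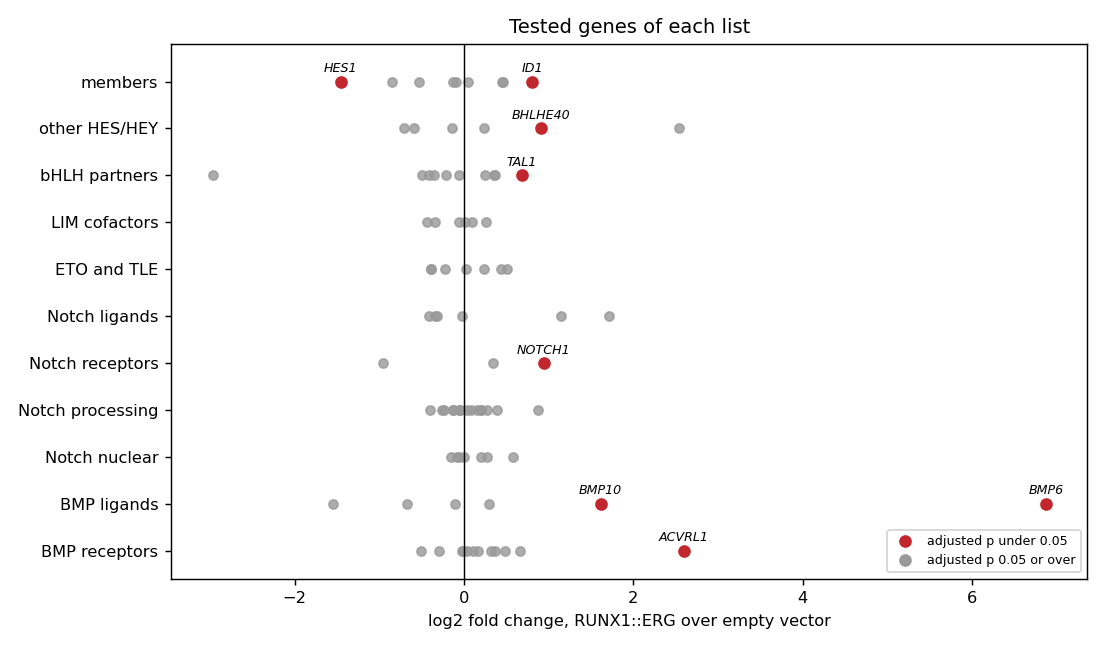
Each point is a tested gene of the list on its row, placed by its log2 fold change of RUNX1::ERG over the empty vector, with called genes in red and named. HES1 is the called gene to the left of 0, and the point of BMP6 rests on 2 counts in the empty vector libraries, so its distance is not precise.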

How the data were processed

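Poly(A) libraries of K562 cells were sequenced, in the study's transcriptome protocol as paired-end reads, and the authors deposited raw counts per gene by NCBI gene number, 1 file per library. The submitters' processing notes list hg19, HISAT2 2.2.1 and featureCounts 2.0.1. Annotation and strand setting are not given in the sources used here. Symbols came from RefSeq (GRCh38.p14) and matched 92.2% of genes. GENCODE v44 on GRCh37 gave positions and exon lengths.

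The quasi-likelihood test of edgeR 4.0.16 (R 4.3.3) was run on these counts with group as the only term, after removal of low genes by filterByExpr, which left 15394, and TMM scaling. P-values were adjusted by Benjamini-Hochberg. The standard error was the log2 fold change divided by the square root of F. Normalized CPM used TMM library sizes. With 2 libraries per group an exact two-sided permutation p cannot go below 0.333, so p-values rest on the spread edgeR estimates across genes. Alternatives were other scalings, filters, halved counts, DESeq2 1.42.0, limma 3.58.1 voom, a replicate block and each library left out.

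The members and lists were chosen with earlier results of these data known. All members are named, then each list's called genes (at most 4 a direction) or, where none was called, its 2 most abundant. HES2, HES4, HES7, HEYL, LYL1, RBPJ, NRARP, JAG1, SMAD6 and SMAD7 were named after their values were seen. So were the markers HBZ, TFRC, MPO, ITGAM, ELANE, CSF1R, COL1A2, COL3A1, PDGFRB and CDH5.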

Additional observations from a re-analysis of the deposited data

How the results depend on the processing

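Of the 737 genes called (560 higher, 177 lower), the number was 1500 without the filter on low counts (962 higher, 538 lower), 1194 with the DESeq2 Wald test (398 lower), and 103 were lower with library totals alone. The replicate block gave 1733 (1082 higher, 651 lower) and called HES6 at -0.86 (adjusted p = 0.00229). Deviations of same-numbered libraries correlated at r = 0.271 over genes, but no label ties a number to a common transfection or day, so no pairing was assumed. The share of calls that were higher, 76% in the report, was 62.4% with the block, 64.1% without the filter, 66.7% with DESeq2 and 54.9% without empty vector replicate 2. With 1 library left out, and the lone one of its group assumed to vary like the rest, the number called ran from 286 (RUNX1::ERG replicate 1 left out) to 1336 (empty vector replicate 2), with 228 to 922 higher and 58 to 602 lower. The cause was not tested. In each setting 2 or 3 members were called. TCF12 ranged from -0.29 to 0.0805, positive only when RUNX1::ERG replicate 1 was left out, and TCF4 from -0.14 to 0.21, negative at -0.0275 and -0.14 when empty vector replicate 1 or RUNX1::ERG replicate 2 was left out. The fold of the ID to E protein ratio ran from 1.45 to 2.09, and the canonical transcript length, tried after the data were seen, gave 1.79. The 95% intervals are not adjusted for the number of genes, so those of HES6 and HEY1 leave out 0 while their adjusted p misses the threshold.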
